A study of Homo sapiens with 12 samples.

Results

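The genes described here encode subunits of the Polycomb repressive complexes, measured in LNCaP cells after depletion of BRG1, the SWI/SNF ATPase encoded by SMARCA4. The members are 10 listed symbols, namely EZH2, EZH1, EED, SUZ12, JARID2, AEBP2, PHF19, MTF2, BMI1 and CBX7, matched to 10 of the 63568 gene rows of the deposited table by Ensembl identifier. LNCaP is an androgen-responsive line from a lymph node metastasis of prostate cancer, grown here in a custom T-medium with serum. Cells received either a non-targeting siRNA pool (si-NT) or 1 of 2 siRNAs against SMARCA4, and cells kept to 144 h were re-seeded and transfected again at 72 h. RNA was sequenced 72 h and 144 h after the first transfection, with 2 si-NT libraries and 4 BRG1 depleted libraries (2 for each siRNA) at each time point, 12 libraries in all. No label states whether duplicate libraries came from separate cultures, so every p-value measures only the spread between these libraries.

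Polycomb repressive complex 2 (PRC2) methylates histone H3 on lysine 27, and its catalytic subunit is either EZH2, which is abundant in dividing cells, or its paralogue EZH1, which predominates in many resting tissues. EED and SUZ12 complete the core, and accessory subunits divide PRC2 into a form with PHF19, MTF2 or PHF1 (PRC2.1) and a form with JARID2 and AEBP2 (PRC2.2). Polycomb repressive complex 1 (PRC1) ubiquitinates histone H2A, with BMI1 as a partner of its RING ligase and CBX proteins such as CBX7 as readers of the methyl mark. Polycomb and SWI/SNF act in opposition at many genes, and EZH2 is known for its overexpression in advanced prostate cancer.

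Promoter sequence was taken from RefSeq (GRCh38.p14) for all 10 members, which have 14 annotated start sites, each with 250 bases before and 50 bases after the start. The E2F site letters TTTNNCGC, on either strand, were found at 6 of the 10 genes (EZH2, EZH1, MTF2, PHF19, AEBP2 and SUZ12) and in 6 of the 14 windows, against 6.89% of 35116 promoters. CCAAT, on either strand, was found at 6 of the 10 genes and in 7 of the 14 windows, against 34.6% of all promoters, and the EZH2 promoter held 4 copies, a number reached by 0.991% of promoters. The letters TTTGAA of the CHR element were found in 1 of the 14 windows, that of SUZ12, against 15.2% of all promoters. These matches are descriptions of letters, not evidence of binding. Shown here are windows from 150 bases before to 30 bases after the start. They belong to the 3 members that differed between groups at 144 h and to EZH1, the alternative catalytic subunit. For EZH2, only the window with matches is shown. Capitals mark E2F letters (8 bases) and CCAAT letters (5 bases, ATTGG on the other strand).
EZH2, chr7:148884262-148884441, minus strand: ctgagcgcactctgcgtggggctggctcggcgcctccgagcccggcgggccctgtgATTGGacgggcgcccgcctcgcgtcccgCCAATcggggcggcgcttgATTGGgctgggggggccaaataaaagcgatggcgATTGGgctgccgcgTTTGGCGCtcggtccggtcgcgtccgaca
MTF2, chr1:93079133-93079312, plus strand: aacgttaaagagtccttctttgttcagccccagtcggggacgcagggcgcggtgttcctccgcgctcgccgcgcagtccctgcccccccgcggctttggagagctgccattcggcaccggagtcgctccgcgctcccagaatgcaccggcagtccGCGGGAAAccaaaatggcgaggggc
EZH1, chr17:42745011-42745190, minus strand: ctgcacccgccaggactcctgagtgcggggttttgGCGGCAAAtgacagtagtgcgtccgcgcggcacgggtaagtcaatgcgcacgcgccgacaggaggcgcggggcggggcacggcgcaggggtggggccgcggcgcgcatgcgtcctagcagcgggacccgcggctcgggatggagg
CBX7, chr22:39152651-39152830, minus strand: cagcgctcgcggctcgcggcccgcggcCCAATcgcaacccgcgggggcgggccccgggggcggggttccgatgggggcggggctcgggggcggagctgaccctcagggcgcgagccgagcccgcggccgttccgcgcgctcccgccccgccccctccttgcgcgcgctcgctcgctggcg
In the EZH2 window shown, the E2F letters began at base 2 after the start and the CCAAT letters at 94, 66, 47 and 13 bases before it. In EZH1 the E2F letters began 115 bases before the start.

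Levels are given in TPM, which is transcript abundance scaled per length and to the same total in every library. The siRNA target SMARCA4 gave 97.0 and 73.4 TPM with si-NT and 17.5 to 21.7 TPM after depletion at 72 h, and 94.5 and 107 against 11.4 to 17.4 TPM at 144 h. Its log2 fold changes were −2.07 and −2.66. All 10 luminal prostate markers looked at, from KLK3 to HOXB13, were at 27.8 TPM or above in every library, while the basal markers KRT5, KRT14 and TP63, the leukocyte markers PTPRC and CD3E and the fibroblast collagen COL1A2 were at 0.33 TPM or below. VIM was at 53.7 to 96.4 TPM, COL1A1 at 3.10 to 9.11 TPM and VWF at 0.21 to 0.77 TPM, and the markers of other cell types summed to 60.3 to 76.9 TPM in si-NT and 68.4 to 75.7 TPM in BRG1 depleted cells at 144 h. Read depth cannot be recovered from TPM and is unknown for every value. In bulk RNA, fewer cells of a type and less RNA per cell cannot be told apart.

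All 10 members were expressed in every library, from 4.06 TPM for PHF19 to 42.0 TPM for BMI1, and all 10 passed the filter on low values. Over the 4 si-NT libraries, BMI1 was highest at 34.8 ± 2.11 TPM (mean ± SD, n = 4). It was followed by SUZ12 at 27.4 ± 2.28 TPM and EZH2 at 25.6 ± 4.99 TPM, whose ranges overlapped. AEBP2 (19.02 ± 1.42 TPM), EED (19.01 ± 2.74 TPM), MTF2 (17.4 ± 1.18 TPM) and EZH1 (15.5 ± 1.51 TPM) came next, and each overlapped its neighbour. The range of EZH2 also overlapped those of AEBP2, EED and MTF2, so no gap set these genes apart from it. CBX7 (8.41 ± 0.49 TPM), PHF19 (8.06 ± 1.04 TPM) and JARID2 (6.00 ± 1.21 TPM) were lowest, and their ranges overlapped too. Between si-NT cells at 144 h and 72 h, 0 of 10 members differed by limma, and 0 had an unadjusted p under 0.05.

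**Figure D1:**
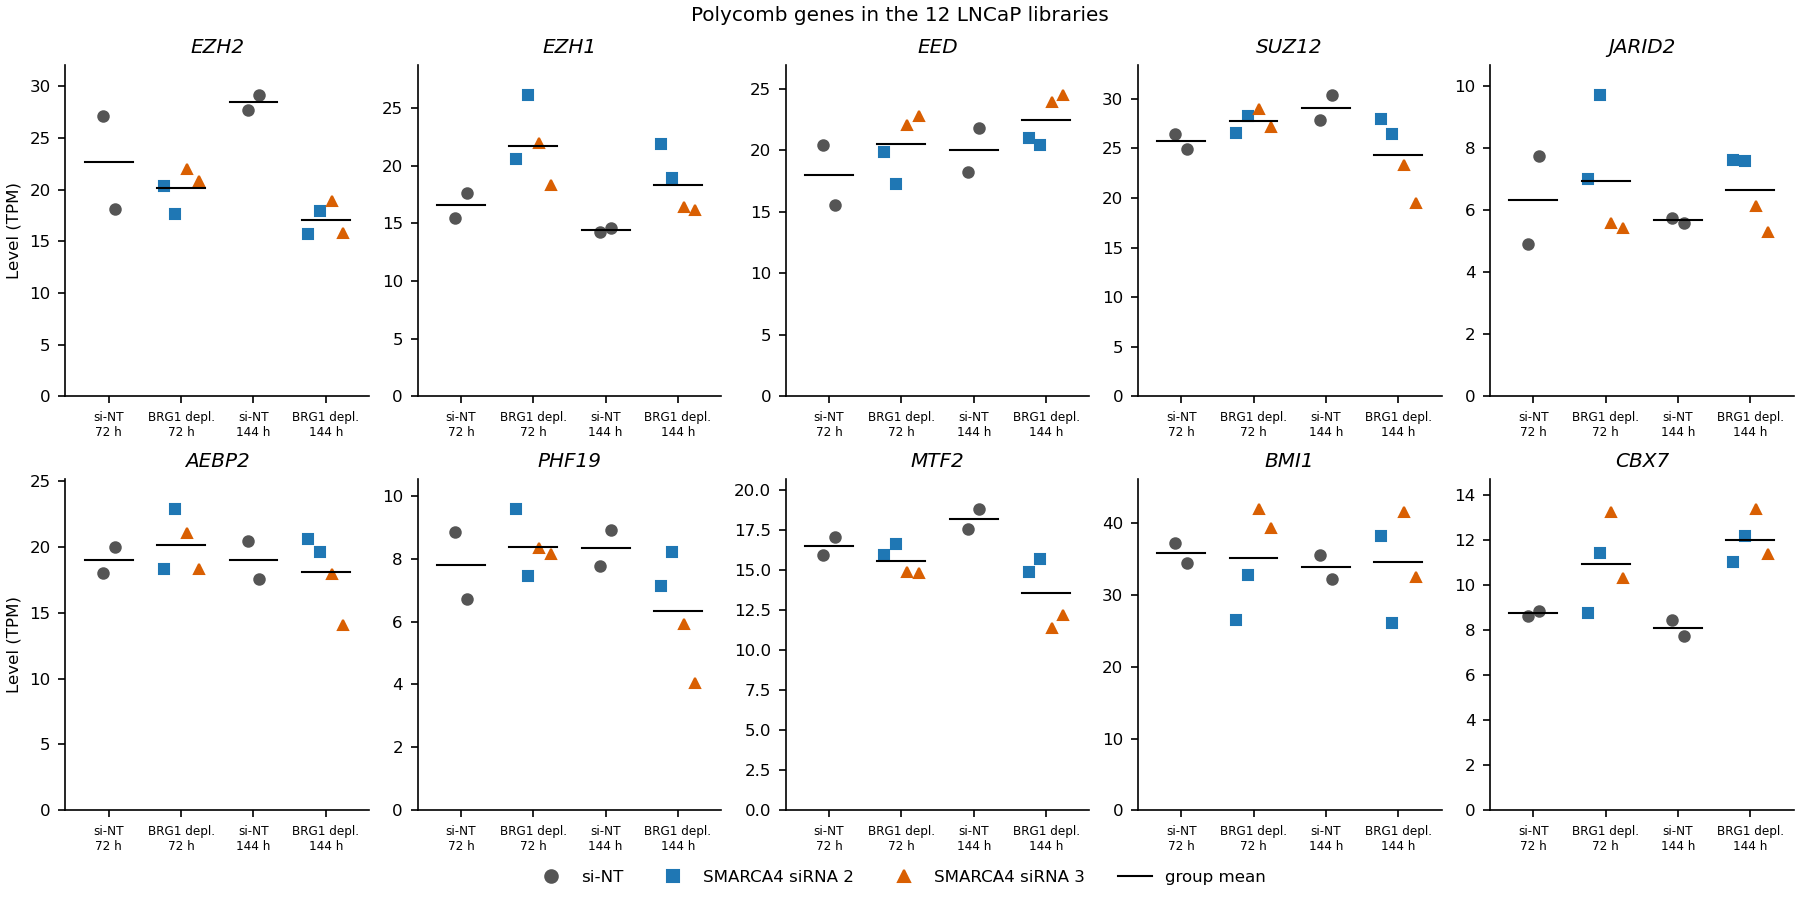
Level in TPM (y axis) of each Polycomb gene in each of the 12 libraries, by group (x axis), with si-NT as circles, SMARCA4 siRNA 2 as squares, siRNA 3 as triangles and the group mean as a line. At 144 h the 4 BRG1 depleted libraries lie below both si-NT libraries for EZH2 and MTF2 and above both for EZH1 and CBX7.

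At 144 h, BRG1 depleted cells held less mRNA of EZH2, the catalytic subunit, and of MTF2, a PRC2.1 subunit that binds CpG-rich DNA, and more of CBX7, a reader subunit of PRC1. These were 3 of 10 members (2 lower, 1 higher), where 24.4% of the 16337 genes tested passed the same limit of an adjusted p of 0.05, 10.8% lower and 13.6% higher. The share among members was therefore near that of all genes. The share of all genes itself dropped to 10.8% without si-NT 144 h replicate 1, to 7.05% without replicate 2 and to 4.60% with ERCC scaling, where 1, 0 and 0 members were called. At 72 h 0 of 10 members passed, where 1.68% of all genes did, and 1 member (EZH1) had an unadjusted p under 0.05. The median log2 fold change of the members was 0.10 at 72 h and −0.03 at 144 h, against 0.06 and 0.03 for all genes. Of the members, 4 of 10 did not overlap the 2 si-NT libraries of their time point at 144 h (48.6% of all genes), 2 of 10 (EZH1 and SUZ12, both higher) at 72 h (23.3% of all genes), and 2 of 10 (MTF2 and CBX7) did not overlap any of the 4 si-NT libraries at 144 h (30% of all genes).

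**Figure D2:**
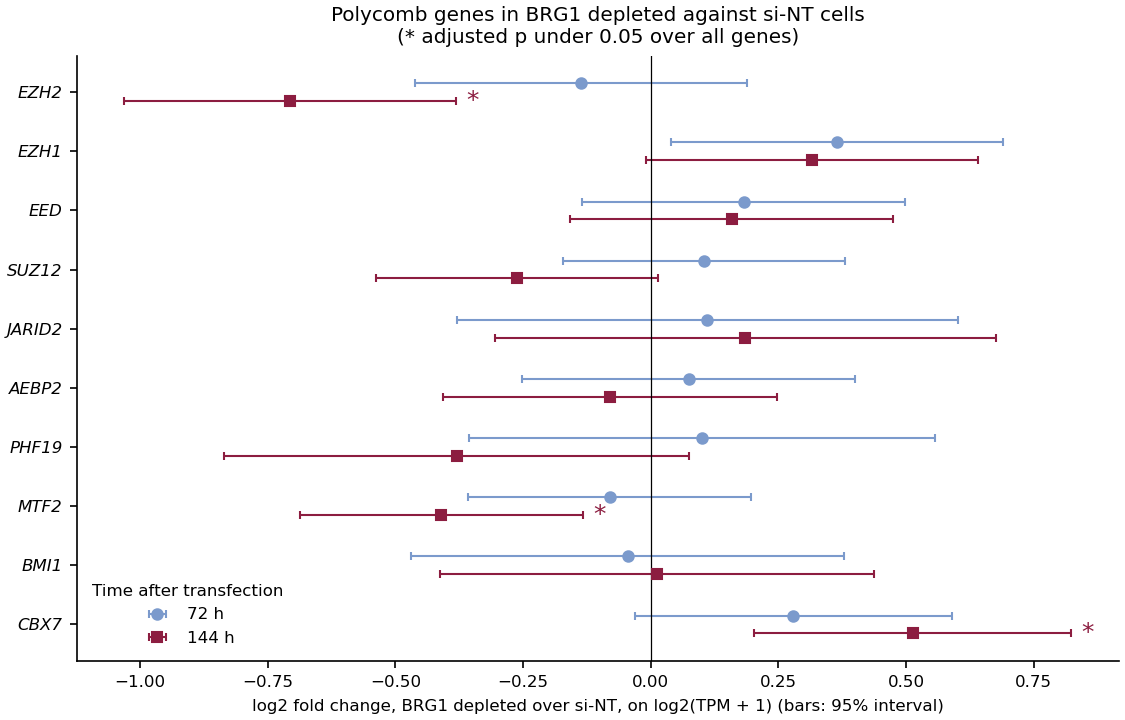
Log2 fold change of each Polycomb gene in BRG1 depleted over si-NT cells, on the log2(TPM + 1) scale (x axis), at 72 h (circles) and 144 h (squares), with 95% intervals as bars and an asterisk where the adjusted p over all genes was under 0.05. EZH2 (−0.71) and MTF2 (−0.41) lie below 0 and CBX7 (0.51) above 0 at 144 h, while the other intervals at 144 h include 0.

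EZH2 (ENSG00000106462.6, GRCh37 chr7:148504349-148581413, minus strand) was 27.2 and 18.2 TPM in si-NT cells at 72 h and 20.3, 17.6, 22.0 and 20.9 TPM in BRG1 depleted cells. These groups overlapped because the si-NT replicates were far apart. At 144 h it was 27.8 and 29.1 TPM in si-NT cells and 15.7, 17.9, 18.9 and 15.8 TPM in BRG1 depleted cells, so that all 4 depleted libraries were below both controls. Its mean fell by 39.9%, and the log2 fold change was −0.71 ± 0.15 (SE, 95% interval −1.03 to −0.38, limma adjusted p = 0.0062). At 144 h the difference from si-NT was of the same size with each siRNA, −0.73 for siRNA 2 (adjusted p = 0.0194) and −0.69 for siRNA 3 (adjusted p = 0.025). The siRNAs differed by 0.04 (95% interval −0.35 to 0.44). Replicate 2 of si-NT at 72 h, at 18.2 TPM, lay within the range of the BRG1 depleted libraries at 144 h. With si-NT 144 h replicate 2 left out, the log2 fold change was −0.67 and the adjusted p was 0.0727, with the lone control assumed to vary like the other groups.

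The change of EZH2 at 144 h minus that at 72 h was −0.57 (95% interval −1.03 to −0.11), which passed an unadjusted limit of 0.05 but not adjustment over all genes (limma adjusted p = 0.347). Of the 10 members 0 passed this test of the difference between time points, where 0.0184% of all genes did. At 72 h the EZH2 log2 fold change was −0.14 and became 0.14 without si-NT 72 h replicate 1. The direction at 72 h was thus set by 1 control library.

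The level of EZH2 moved with that of the DNA replication genes. The sum of 19 S phase genes was 1338 and 817 TPM in si-NT cells at 72 h and 1380 and 1525 TPM at 144 h. In BRG1 depleted cells it was 763 to 1003 TPM at 72 h and 663 to 965 TPM at 144 h. The si-NT library that was low in EZH2 at 72 h was also the low control for this sum. In si-NT cells all 19 genes were higher at 144 h than at 72 h (median log2 difference 0.52), though 0 passed. The same held for the 12 mitosis genes described next (median 0.40, 0 passed). Of the 19 genes, 15 fell at 144 h (10.8% of all genes did) and 0 rose, with a median log2 fold change of −0.88, and 0 passed at 72 h (1.68% of all genes). Among them, MCM5, a subunit of the replicative helicase, fell by 0.94 on the log2 scale (adjusted p = 0.0164) and CDC6, which loads that helicase, by 1.26 (adjusted p = 0.0018). Of 12 mitosis genes, 11 fell at 144 h (median −0.90, likewise against 10.8%), among them the proliferation marker MKI67 (−0.98) and the topoisomerase TOP2A (−1.01). Without si-NT 144 h replicate 1 they were 6 of 19 and 4 of 12 (10.8% of all genes called in either direction), and without replicate 2 they were 3 of 19 and 2 of 12 (7.05%), with medians still between −0.79 and −0.99.

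As a share of the S phase sum, EZH2 was 2.01% and 1.91% in si-NT cells at 144 h and 2.13%, 1.85%, 2.18% and 2.38% in BRG1 depleted cells, so that these groups overlapped. At 72 h the share was 2.03% and 2.22% in si-NT cells and 2.05% to 2.31% in BRG1 depleted cells. The proportion of EZH2 to these mRNAs thus did not separate depleted from control libraries. This was not particular to EZH2. For CBX2, a PRC1 gene outside the list, the share at 144 h was 0.81% to 0.83% in si-NT cells and 0.80% to 0.94% in BRG1 depleted cells. MTF2 was 1.28% and 1.23% of the sum in si-NT cells at 144 h and 1.31% to 2.02% in BRG1 depleted cells, above both controls. This is the opposite order from its own level, and it follows from arithmetic, since the sum fell more than MTF2 did. At 144 h the sum averaged 1453 TPM in si-NT and 808 TPM in depleted cells, and MTF2 averaged 18.2 and 13.6 TPM. What part the cell cycle had in any of these differences was not tested.

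**Figure D3:**
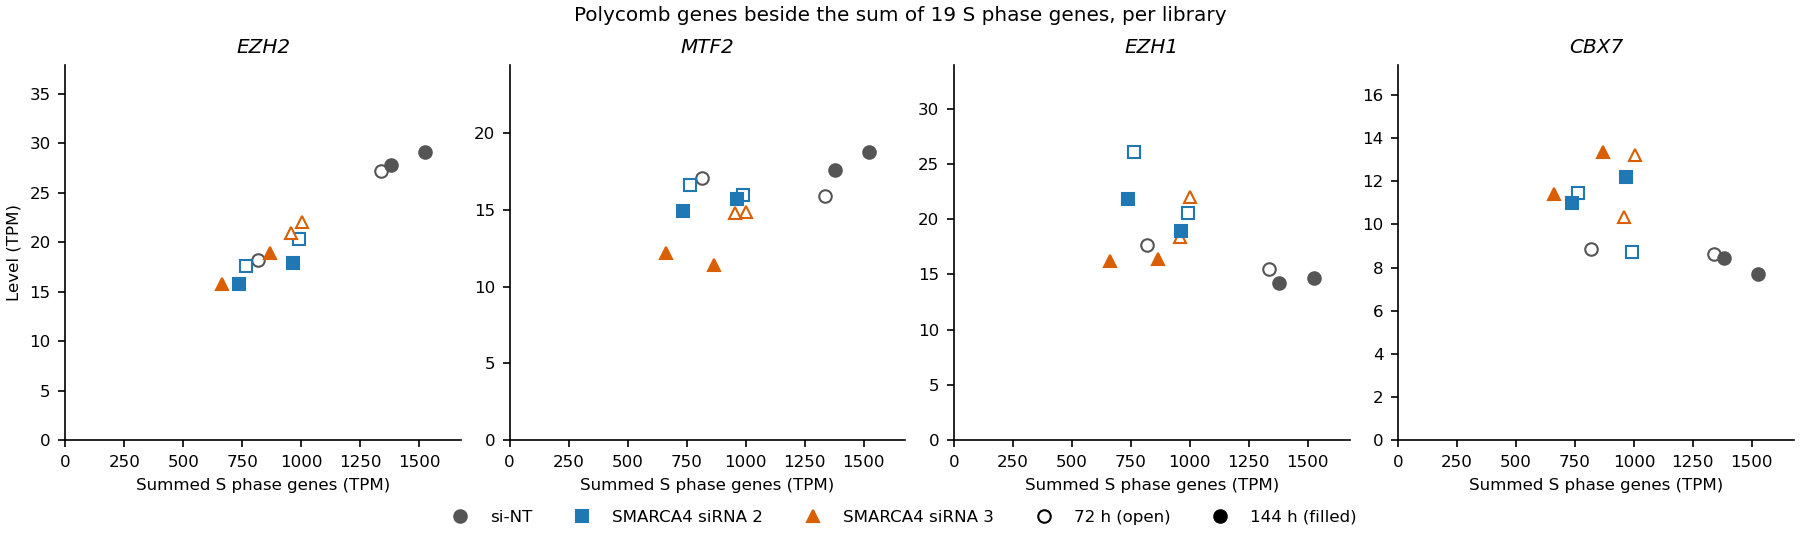
Level in TPM of EZH2, MTF2, EZH1 and CBX7 (y axes) beside the summed TPM of 19 S phase genes (x axis), with 1 point for each of the 12 libraries, open at 72 h and filled at 144 h. The 3 libraries with EZH2 above 27 TPM are the 3 with the highest S phase sums (1338 to 1525 TPM), all of them si-NT.

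EZH1 (ENSG00000108799.8, chr17:40852293-40897067, minus strand) was 15.5 and 17.6 TPM in si-NT cells at 72 h and 20.6, 26.1, 22.0 and 18.4 TPM in BRG1 depleted cells. At 144 h it was 14.2 and 14.7 TPM in si-NT cells and 21.9, 18.9, 16.4 and 16.2 TPM in BRG1 depleted cells. The depleted libraries were above both controls of their time point at both times, the siRNA 2 libraries above the siRNA 3 libraries at 144 h. The log2 fold change was 0.36 ± 0.15 (SE) at 72 h (adjusted p = 0.278) and 0.32 ± 0.15 at 144 h (adjusted p = 0.146), and neither passed. With siRNA 2 alone at 144 h the value was 0.47 (adjusted p = 0.0454), and with siRNA 3 alone 0.16 (adjusted p = 0.453). With values scaled to the ERCC spike-ins instead of to TPM, the 144 h value of EZH1 was −0.06. The median of all genes at 144 h was −0.31 on that scale and 0.03 in TPM.

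The balance between the mRNAs of the 2 catalytic subunits was read per library from TPM. The ratio of EZH2 to EZH1 was 1.75 and 1.03 in si-NT cells at 72 h and 0.99, 0.68, 1.00 and 1.14 in BRG1 depleted cells. At 144 h it was 1.95 and 1.99 in si-NT cells and 0.72, 0.95, 1.15 and 0.98 in BRG1 depleted cells. At 144 h EZH2 thus exceeded EZH1 in both controls, and the ratio was lower in all 4 depleted libraries, where only 1 was above 1. The ratio has no test of its own here, since it combines values already tested. Its separation at 144 h follows from them, as EZH2 was below and EZH1 above both controls in every depleted library. Of all genes, 48.6% did not overlap the si-NT libraries of that time point.

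EED, the subunit that binds the methyl mark, was 20.5 and 15.5 TPM in si-NT cells at 72 h, 17.3 to 22.8 TPM in depleted cells, 18.2 and 21.8 TPM in si-NT cells at 144 h and 20.4 to 24.5 TPM in depleted cells. Its groups overlapped at both times, and its log2 fold changes of 0.18 (adjusted p = 0.628) and 0.16 (adjusted p = 0.464) did not pass. SUZ12, the scaffold of the complex, was 26.5 and 25.0 TPM against 26.6 to 28.9 TPM at 72 h, and 27.9 and 30.3 TPM against 27.9, 26.4, 23.3 and 19.5 TPM at 144 h. At 144 h 3 of the 4 depleted libraries were below both controls, and those of siRNA 3 were lowest. The SUZ12 log2 fold change at 144 h was −0.26 ± 0.13 with both siRNAs together (adjusted p = 0.155), −0.09 with siRNA 2 (adjusted p = 0.587) and −0.43 with siRNA 3 (adjusted p = 0.0243). With quantile normalisation SUZ12 passed at 144 h (−0.29, adjusted p = 0.0429). SUZ12 has a near-identical pseudogene, SUZ12P1, listed at 8.35 to 15.5 TPM, and how the counting divided reads between them is uncertain. The EZH2 pseudogene EZH2P1 was at 0.35 TPM or below in every library.

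Among the PRC2.1 accessory subunits, MTF2 (chr1:93544792-93604636, plus strand) was 15.95 and 17.1 TPM in si-NT cells and 15.97, 16.7, 14.9 and 14.8 TPM in depleted cells at 72 h. At 144 h it was 17.6 and 18.8 TPM in si-NT cells and 14.9, 15.7, 11.4 and 12.2 TPM in depleted cells. All 4 depleted libraries at 144 h were below all 4 si-NT libraries of either time point, and the siRNA 3 libraries were lowest. The log2 fold change at 144 h was −0.41 ± 0.13 (95% interval −0.69 to −0.13, adjusted p = 0.0357). It was −0.23 with siRNA 2 (adjusted p = 0.12) and −0.59 with siRNA 3 (adjusted p = 0.0052). The call was lost when si-NT 144 h replicate 1 (adjusted p = 0.117), si-NT 144 h replicate 2 (0.23), siRNA 3 144 h replicate 1 (0.0704) or siRNA 3 144 h replicate 2 (0.0683) was left out.

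PHF19, which like MTF2 brings PRC2 to CpG islands, was the lowest of the members in a depleted library. It was 8.85 and 6.72 TPM in si-NT cells and 7.46 to 9.57 TPM in depleted cells at 72 h, and 7.75 and 8.92 TPM against 7.14, 8.20, 5.93 and 4.06 TPM at 144 h. The siRNA 2 libraries overlapped the controls at 144 h and the siRNA 3 libraries did not. The log2 fold change at 144 h was −0.38 ± 0.21 (adjusted p = 0.212), −0.11 with siRNA 2 (adjusted p = 0.736) and −0.65 with siRNA 3 (adjusted p = 0.0411). Neither PRC2.2 subunit passed at either time. JARID2, which ties PRC2 to ubiquitinated H2A, was 4.92 and 7.74 TPM in si-NT cells at 72 h and 5.76 and 5.59 TPM at 144 h, against 5.43 to 9.70 TPM and 5.29 to 7.62 TPM in depleted cells. AEBP2, its zinc finger partner, was 18.0 and 20.0 TPM and 20.5 and 17.6 TPM in si-NT cells, against 18.3 to 22.9 TPM and 14.1 to 20.6 TPM. Both overlapped their controls at both times, and their log2 fold changes at 144 h were 0.19 for JARID2 (95% interval −0.31 to 0.68) and −0.08 for AEBP2 (95% interval −0.41 to 0.25).

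The summed level of PHF19 and MTF2 over that of JARID2 and AEBP2 was 0.97 and 1.20 in si-NT cells at 144 h and 0.78, 0.88, 0.72 and 0.84 in depleted cells. Every depleted library was below both controls at 144 h, as was already so for MTF2 alone. Of all genes, 48.6% likewise did not overlap the si-NT libraries of that time point. This ratio has no test of its own, since it combines values already tested. At 72 h the ratio was 1.08 and 0.86 in si-NT cells and 0.74 to 1.01 in depleted cells, which overlapped. PHF1, the third subunit of the PRC2.1 group and not a member of the list, averaged 1.44 TPM in si-NT and 2.89 TPM in depleted cells at 144 h (log2 fold change 0.67 ± 0.26, adjusted p = 0.0842). At 72 h the order was the opposite, 2.62 TPM in si-NT and 1.89 TPM in depleted cells (−0.38, adjusted p = 0.567).

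In PRC1, BMI1 was 37.2 and 34.4 TPM in si-NT cells and 26.6, 32.8, 42.0 and 39.3 TPM in depleted cells at 72 h. At 144 h it was 35.5 and 32.2 TPM against 38.2, 26.2, 41.5 and 32.5 TPM. The depleted libraries lay on both sides of the controls at both times, with log2 fold changes of −0.05 (95% interval −0.47 to 0.38) and 0.01 (95% interval −0.41 to 0.44). BMI1 shares exons with the readthrough gene COMMD3-BMI1, listed at 29.9 to 43.2 TPM, and how reads were divided between them is uncertain. The sum of both was 64.2 and 74.1 TPM in si-NT cells and 66.2 to 81.4 TPM in depleted cells at 144 h, which also overlapped.

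CBX7 (chr22:39516172-39548685, minus strand) was 8.61 and 8.87 TPM in si-NT cells and 8.74, 11.4, 13.2 and 10.3 TPM in depleted cells at 72 h. At 144 h it was 8.46 and 7.72 TPM in si-NT cells and 11.01, 12.2, 13.4 and 11.4 TPM in depleted cells. All 4 depleted libraries at 144 h were above all 4 si-NT libraries, whereas at 72 h 1 depleted library lay between its controls. The log2 fold change was 0.28 ± 0.14 at 72 h (adjusted p = 0.407) and 0.51 ± 0.14 at 144 h (95% interval 0.20 to 0.82, adjusted p = 0.0228). By siRNA it was 0.47 (adjusted p = 0.0659) and 0.56 (adjusted p = 0.0389) at 144 h. The call was lost without si-NT 144 h replicate 1 (adjusted p = 0.084) or replicate 2 (0.18), and with ERCC scaling the value was 0.14 (adjusted p = 0.803), which is 0.46 above the median of all genes on that scale.

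For the members alone, 40 two-sided exact permutation tests of mean TPM were run. Against the 2 si-NT libraries of a time point, no p below 0.133 is possible, and EZH2, EZH1, MTF2 and CBX7 at 144 h and EZH1 and SUZ12 at 72 h reached it. Against the 4 si-NT libraries of both times, the smallest possible exact p of 0.0286 was reached by MTF2 and CBX7 at 144 h and by EZH1 at 72 h, and EZH2 at 144 h gave 0.0571. After adjustment over the 40 tests no p was below 0.357. Given the smallest possible values, no adjusted p under 0.05 could have been reached, so these tests could not call any member.

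The siRNAs were also compared with each other in the fit with 6 groups. Against si-NT at 72 h, 0 of 10 members passed with siRNA 2 (1.57% of all genes) and 0 with siRNA 3 (0.655%). At 144 h, 2 of 10 passed with siRNA 2 (EZH2 lower and EZH1 higher, where 21.3% of all genes passed) and 5 of 10 with siRNA 3 (EZH2, SUZ12, PHF19 and MTF2 lower and CBX7 higher, where 20.2% of all genes passed). Both comparisons use the same si-NT libraries. The direct difference between siRNA 3 and siRNA 2 passed for 0 of 10 members at 72 h (0.141% of all genes) and 0 of 10 at 144 h (0.331%). At 144 h this difference passed an unadjusted limit of 0.05 for MTF2 (−0.35, 95% interval −0.57 to −0.13), SUZ12 (−0.34, −0.59 to −0.09) and PHF19 (−0.55, −0.98 to −0.11), with limma adjusted p of 0.198, 0.25 and 0.284. At 72 h it did so for JARID2 (−0.51, 95% interval −0.95 to −0.06) and BMI1 (0.45, 0.03 to 0.86), with adjusted p of 0.54 and 0.564.

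**Figure D4:**
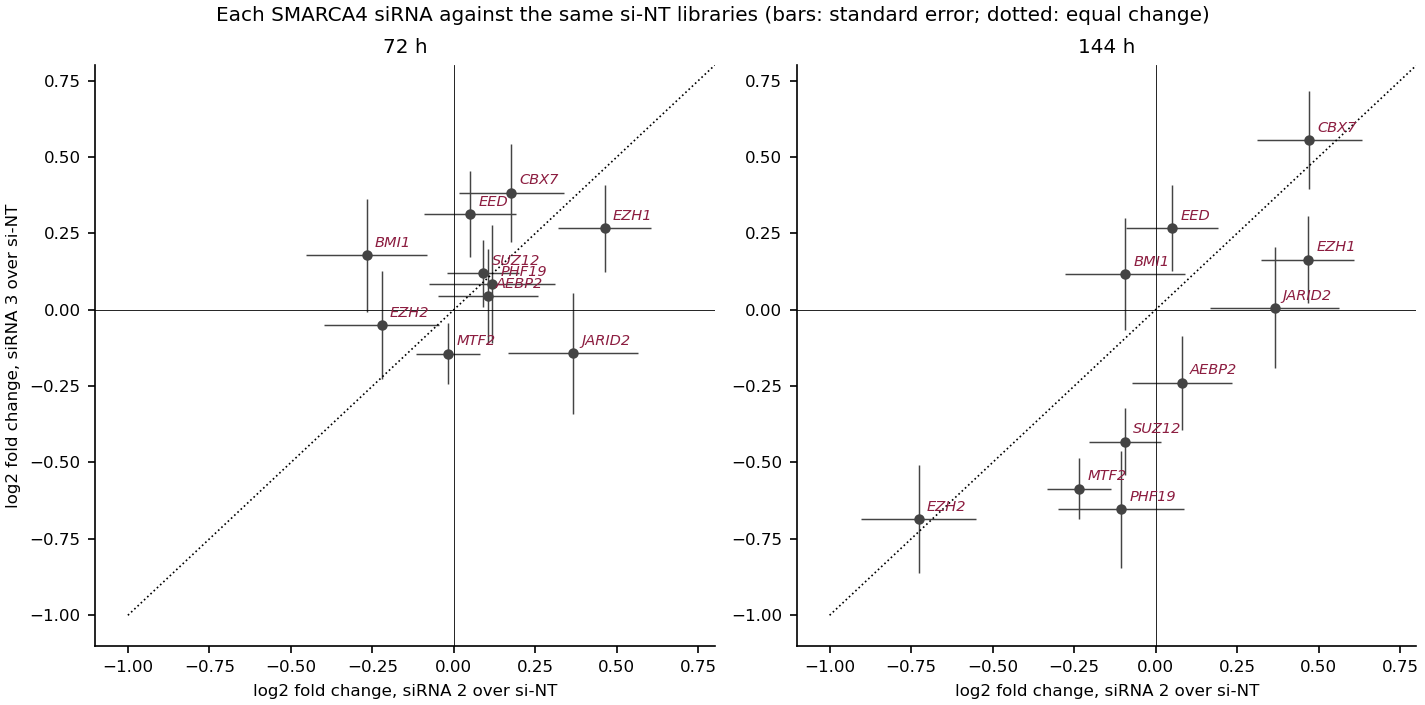
Log2 fold change over si-NT of each Polycomb gene with siRNA 2 (x axis) and siRNA 3 (y axis) at 72 h (left) and 144 h (right), with standard errors as bars and equal change as the dotted line. At 144 h EZH2 and CBX7 lie close to the line, while MTF2, SUZ12 and PHF19 lie below it.

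Of 53 other Polycomb genes listed, 51 were in the table and 48 were tested. At 72 h 0 passed, and 4 had an unadjusted p under 0.05. At 144 h 9 of 48 passed (18.8%, against 24.4% of all genes), 5 lower and 4 higher, and the median log2 fold change was −0.11. In PRC1, the CBX proteins differed in direction. CBX2, another reader subunit, was 11.5 and 12.4 TPM in si-NT cells and 6.53, 7.79, 6.98 and 6.23 TPM in depleted cells at 144 h. It fell by 0.72 on the log2 scale (adjusted p = 0.0013), and its groups did not overlap. CBX6 rose by 0.38 (adjusted p = 0.0471, called in 10 of 23 alternatives, −0.01 with ERCC scaling), while CBX8 (−0.15) did not pass. The ratio of CBX7 to CBX2 was 0.73 and 0.63 in si-NT cells and 1.57 to 1.92 in depleted cells at 144 h. At 72 h it was 0.82 and 0.93 against 1.11 to 1.61. This ratio has no test of its own, since it combines genes already called in opposite directions at 144 h.

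The other PRC1 genes that passed at 144 h belong to its variant forms or its polymerising subunits. KDM2B, which brings a variant PRC1 to CpG islands, fell by 0.61 (adjusted p = 0.0179), whereas BCOR, its partner in that complex, rose by 0.64 (adjusted p = 0.0084). E2F6 (−0.40, adjusted p = 0.0263) and its dimer partner TFDP1 (−0.46, adjusted p = 0.0156) both fell. PHC1, a polymerising subunit, rose by 0.66 (adjusted p = 0.0159), from 7.22 and 5.32 TPM in si-NT cells to 9.20 to 10.99 TPM. In PRC2 the histone chaperone RBBP7 fell by 0.25 (adjusted p = 0.0445, called in 9 of 23 alternatives) and its paralogue RBBP4 was at −0.38 (adjusted p = 0.051). BAP1, the deubiquitinase that removes the PRC1 mark, rose by 0.31 (adjusted p = 0.0296), though with ERCC scaling its value was −0.09. The H3K27 demethylases KDM6A (0.22) and KDM6B (0.36) did not pass. Without si-NT 144 h replicate 1 the count was 2 of 48 (CBX2 and PHC1, 10.8% of all genes), and without replicate 2 it was 1 of 48 (CBX2, 7.05% of all genes).

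**Figure D5:**
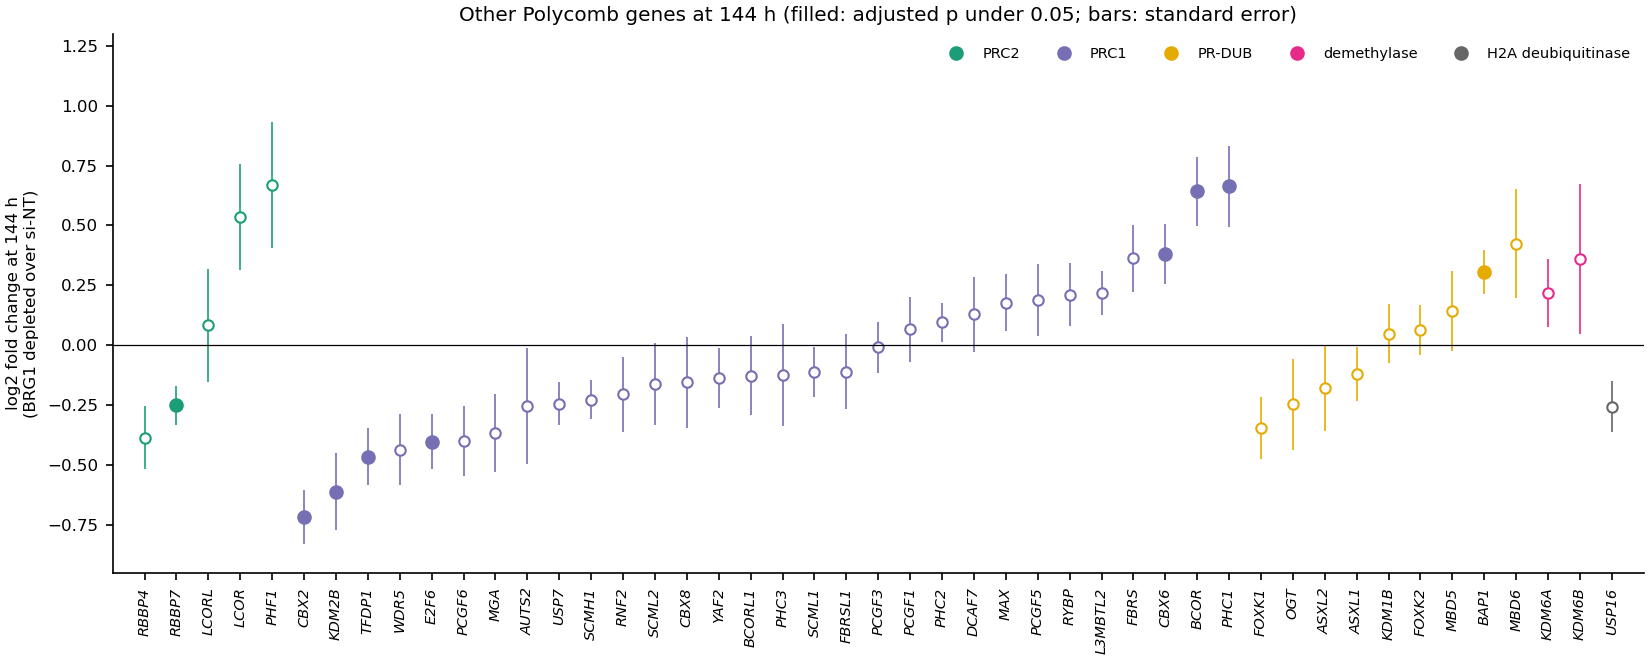
Log2 fold change at 144 h (y axis, BRG1 depleted over si-NT, with standard errors as bars) of other Polycomb genes tested, ordered within each complex along the x axis and filled where the adjusted p was under 0.05. CBX2 (−0.72) and KDM2B (−0.61) are the lowest of the filled points and PHC1 (0.66) and BCOR (0.64) the highest.

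The genes whose level followed that of EZH2 most closely over the 12 libraries, among 10981 genes ranked by Pearson's r of log2 values, were CSE1L (0.98), NCAPG (0.98), RAD54L (0.98), DCLRE1B (0.98) and WDHD1 (0.98). Each of these fell at 144 h, by 0.70 (DCLRE1B) to 0.99 (NCAPG and RAD54L) on the log2 scale. Those nearest to EZH1 were ZNF18 (0.97), KMT5B (0.95), RASA1 (0.95), CREBZF (0.94) and GOLGA1 (0.94), of which none passed at 144 h. These correlations describe libraries that share the same groups and have no p. Since EZH2 itself fell in these libraries at 144 h, the fall of the genes most like it follows from the ranking.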

How the data were processed

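RNA from 12 LNCaP libraries was spiked with ERCC RNA and made into stranded mRNA libraries. By the methods and the submitters' processing notes, the authors trimmed reads (Trim Galore 0.11.2), aligned them to hg19/GRCh37 (STAR 2.4.0j), counted them with featureCounts and deposited TPM on GENCODE 19 genes, and the tool that made TPM is not given in the sources used here. The deposited TPM sum to 999999 to 1000001 a library, spike-ins (0.80% to 1.97%) included, so ERCC normalisation is not kept in the scale, TPM holds no counts, and no count test or counting interval was used. Duplicate library numbers did not pair libraries (correlation of their deviations −0.229 to 0.3).

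Genes with at least 1 TPM in 2 libraries (16337) were tested on log2(TPM + 1) with limma 3.58.1 (trend, R 4.3.3) in 4 groups with 1 shared spread (6 groups for single siRNAs), with Benjamini-Hochberg adjustment over all genes. Fold changes on this scale understate those of low genes. The table numbers the siRNAs 2 and 3 and the sample titles number them 1 and 2, with 1 library at 72 h given both title numbers, so columns of depleted cells were matched to groups and not to single samples, and the siRNAs keep the table's numbers. Exact permutation tests and tables used Python 3.11.15, SciPy 1.17.1, pandas 2.3.3, NumPy 2.4.6 and matplotlib 3.10.9. The fit was tested on simulated data. The members, the lists (other Polycomb, S phase, mitosis, HOX, EZH2-repressed genes and cell type markers) and the tests were chosen with earlier results of these data known. Text names all members, SMARCA4, overlapping gene models, listed Polycomb genes that passed, 4 HOX and 4 EZH2-repressed genes with the smallest adjusted p, 4 cell cycle genes and the 5 genes most like EZH2 and EZH1, and RBBP4, PHF1, CBX8, KDM6A and KDM6B were added after their values were seen. Some genes these rules name are not reported here. Alternatives were a pseudocount of 0.1, other filters (none, or a mean TPM of 5), median-of-ratios, quantile and ERCC scaling, a replicate block, no trend, 1 time point alone, 6 groups, combined controls, a log2 limit of 1, and each library left out. Symbols and GRCh37 positions come from GENCODE 44, and EPOP, PCGF2, UHRF1 and PECAM1 were not matched. ERCC spike-ins were used only for scaling.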

Additional observations from a re-analysis of the deposited data

Results flagged for a closer look

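In 64 groups of 4 depleted libraries (named genes at each time point), 3 held a library far from the other 3 by Dixon's gap ratio, and chance flags about 1 group in 20. All were at 144 h. PHC1 was 9.20 TPM in siRNA 3 replicate 2, with the other depleted libraries at 10.7 to 10.99 TPM (gap ratio 0.86). RBBP7 was 110 TPM in siRNA 3 replicate 1 and close to 100 TPM in the others (0.981). CDC6 was 12.7 TPM in siRNA 3 replicate 2 and 19.4 to 20.7 TPM in the others (0.834). None of the 10 members was among them.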

How the results depend on the processing

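With ERCC scaling, which shifted the median of all genes by −0.11 at 72 h and −0.31 at 144 h and in which the spike-in share ranged from 0.80% to 1.97%, 0 members and 1 other Polycomb gene were called at 144 h, where 4.60% of all genes were (EZH2 −1.09, adjusted p = 0.0559, and −0.78 relative to that median). It reversed EED (−0.0045 at 72 h, −0.23 at 144 h), JARID2 (−0.0599, −0.157), SUZ12 (−0.0846), AEBP2 (−0.113) and PHF19 (−0.075) at 72 h, and EZH1 (−0.0634), BMI1 (−0.381), BAP1 (−0.089) and CBX6 (−0.0126) at 144 h. Relative to the median of all genes on that scale, each of these except BMI1 (−0.0689) was above 0. Those values ran from 0.00158 for AEBP2 at 72 h to 0.3 for CBX6 at 144 h. BMI1 at 144 h was also −0.0204 with median-of-ratios factors, −0.0115 with quantile normalisation and −0.0279 with combined controls. Combined controls called 1 member (EZH1) and 2 other Polycomb genes at 72 h (7.38% of all genes). Median-of-ratios called 16 and quantile normalisation 17 other Polycomb genes at 144 h (26.7% and 27.1% of all genes), and quantile normalisation also called SUZ12. A log2 limit of 1 called 0 of either list. MTF2 was also lost with no filter (adjusted p = 0.0591) and with 1 time point alone (0.0912). With 1 library left out, 0 to 3 members were called at 144 h (0 without si-NT replicate 2, 1 without replicate 1) and 1 to 12 other Polycomb genes. Log2 fold changes then ran from −0.41 to 0.14 for EZH2, −0.0057 to 0.37 for EED, −0.17 to 0.39 for JARID2, −0.0756 to 0.28 for PHF19 and −0.14 to 0.0785 for BMI1 at 72 h, and from −0.18 to 0.0286 for AEBP2 and −0.0803 to 0.14 for BMI1 at 144 h, each crossing 0. With the replicate block, the same 3 members were called at 144 h and 0 at 72 h, and 7 other Polycomb genes, without RBBP7 (adjusted p = 0.0523) and CBX6 (0.0596). The causes were not tested.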

Other observations

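Known Polycomb targets were described in 2 lists, each with genes that passed in both directions and more genes that did not pass. Of 39 HOX genes, 19 passed the filter, 0 were called at 72 h and 5 at 144 h (26.3%, against 24.4% of all genes). Of the 5, 1 was lower and 4 were higher, and the list median at 144 h was 0.17, against 0.03 for all genes. HOXB9 fell by 0.94 on the log2 scale (adjusted p = 0.00088), from 5.02 and 6.48 TPM in si-NT cells to 2.25 to 2.85 TPM. HOXC13 (1.14, adjusted p = 0.0017) and HOXC6 (0.57, adjusted p = 0.0025) rose, the latter from 18.9 and 20.0 TPM to 25.3 to 32.1 TPM. Without si-NT 144 h replicate 1 the count was 3 of 19 (10.8% of all genes).

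Of 16 genes known to be repressed by EZH2 in some tissues, 11 passed the filter, 0 were called at 72 h and 5 at 144 h (45.5%, against 24.4% of all genes), 3 higher and 2 lower, with a median log2 fold change of 0.05. The adhesion gene CDH1 was 124 and 111 TPM in si-NT cells and 192 to 248 TPM in depleted cells (0.91, adjusted p = 0.00075). The cell cycle inhibitor CDKN2B rose by 1.50 (adjusted p = 0.0032), from 0.99 and 0.48 TPM to 2.24 to 6.02 TPM, and the retinoic acid receptor RARB by 0.66 (adjusted p = 0.0042). CDKN2A, the neighbour of CDKN2B, fell by 0.59 (adjusted p = 0.0134). Without si-NT 144 h replicate 2 the count was 3 of 11 (7.05% of all genes), and CDKN2B (adjusted p = 0.0588) and CDKN2A (0.145) were not called. With ERCC scaling, 1 HOX gene and 0 of these genes were called (4.60% of all genes).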
